A study of Mus musculus with 16 samples.

Results

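The comparison described here sets Paneth cells of mice given DEX and then PBS against those of mice given PBS at both injections. It used 8 of the 16 RNA-seq libraries of the series, the 4 labelled DEX+PBS (DEX as the first injection and PBS 1 h later) and the 4 labelled PBS+PBS. Sampling followed the second injection by 3 h and DEX by 4 h. PBS is a saline solution and carries no drug, so by their labels the groups differ in the first injection alone. All animals were C57BL/6J mice per the methods of the study, with no transgene named for these samples, and each library was a bulk preparation from FACS-sorted Paneth cells of the small intestine. The age and sex of the mice of these libraries, the time of day and the dose are not given in the sources used here. DEX is not spelled out there either and is read as dexamethasone, a synthetic glucocorticoid. The other 8 libraries, DEX+TNF and PBS+TNF, come from mice that received tumour necrosis factor as the second injection. They helped to estimate the spread and gave a separate DEX comparison that shares no library with the first.

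Glucocorticoids cross the cell membrane and bind the glucocorticoid receptor (Nr3c1), which is held in the cytosol by the chaperone HSP90 and co-chaperones of the FKBP family. The bound receptor moves to the nucleus, where it activates many genes by binding a palindromic DNA element as a dimer and lowers others, among them inflammatory genes, by hindering factors such as NF-kB and AP-1. Paneth cells sit at the base of the intestinal crypts, secrete alpha-defensins, lysozyme and other antimicrobial proteins, and supply signals to the neighbouring stem cells.

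The 8 libraries held 7286307 to 15832111 counts. Alpha-defensin genes took 32.3% to 54.5% of them, and the Paneth cell genes Lyz1 and Mmp7 reached 44032 to 222948 and 3675 to 14912 CPM (read counts scaled to the normalized library size), so the sorted cells carried the defining transcripts of their label. Marker genes of connective tissue and of red blood cells summed to at most 0.482 and 0.107 CPM. Summed tuft cell markers ranged over 19.4 to 116 CPM after DEX and 4.20 to 50.8 CPM in the controls, and 7 of 7 tested tuft markers had a positive log2 fold change with a median of 1.40. Summed stem cell markers ranged over 311 to 768 CPM after DEX and 554 to 811 CPM in the controls, and 0 of 7 were positive. Sums for the other lists overlapped as well: 347 to 445 against 368 to 557 CPM for enterocyte, 4109.6 to 7715 against 4151 to 10536 CPM for goblet, 65.1 to 183 against 80.0 to 129.9 CPM for cycling, 2769.6 to 10773 against 3432 to 17873 CPM for enteroendocrine (nearly all Reg4) and 23.3 to 68.2 against 31.5 to 115 CPM for immune cell markers. The immune sum was nearly all Lyz2, with 5600 counts over the 8 libraries against 73 for Ptprc and 12 for Cd68. No marker of any list was called, and the part of the markers in the results below was not tested. In sorted bulk samples, a change in the number of cells of a type cannot be told apart from a change in RNA per cell. Libraries PBS+PBS 4 and DEX+PBS 3 had the highest defensin shares (54.5% and 49.3%) and the lowest scaling factors (0.503 and 0.740).

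In this comparison Sgk1 rose 13.5-fold, and it was the only gene to pass the test across all genes. Of 11809 tested genes, 1 was called at an adjusted p under 0.05 (0.00847% of the tested genes; edgeR quasi-likelihood test with Benjamini-Hochberg adjustment). Every other gene had an adjusted p of at least 0.161. With DESeq2 on the same libraries, 7 genes were called, all higher in DEX+PBS: Sgk1, Hif3a, Fkbp5, Acy1, Mt1, Ddit4 and Fam43a. These were also the first 7 genes in the edgeR ranking by p.

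Across all tested genes the shift was small and centred near 0. The log2 fold change was above 0 for 5552 genes (47% of those tested) and below 0 for 6254, with a median of -0.02 and quartiles of -0.22 and 0.16. It lay within 0.5 of 0 for 10114 genes (85.6%). A log2 fold change past 1 was fitted for 192 genes upward and 233 downward, but 249 of these 425 had a mean level under 1 CPM. The spread of the fold changes depended on the level: its interquartile range was 1.05 in the 1150 genes under 1 CPM, 0.45 in the 4993 genes at 1 to 10 CPM, 0.28 in the 5136 genes at 10 to 100 CPM and 0.33 in the 530 genes over 100 CPM. Genes in the lowest class thus make up most of the large fold changes in both directions.

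At an unadjusted p under 0.05, 224 genes remained (1.9% of the tested genes), 108 higher (0.915%) and 116 lower (0.982%) in DEX+PBS. All of these besides Sgk1 missed the adjusted threshold, so the list serves as a ranking. Its very top held more higher than lower genes. Under a p of 0.01 there were 28 higher and 16 lower genes, and under 0.001 there were 8 higher and 1 lower. By the measure of separation, all 4 DEX+PBS libraries lay on the same side of all 4 PBS+PBS libraries for 222 genes (1.88%), above them for 118 (0.999%) and below them for 104 (0.881%). The genes higher at p under 0.05 had a median log2 fold change of 0.87, and the lower ones of -0.99.

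**Figure D1:**
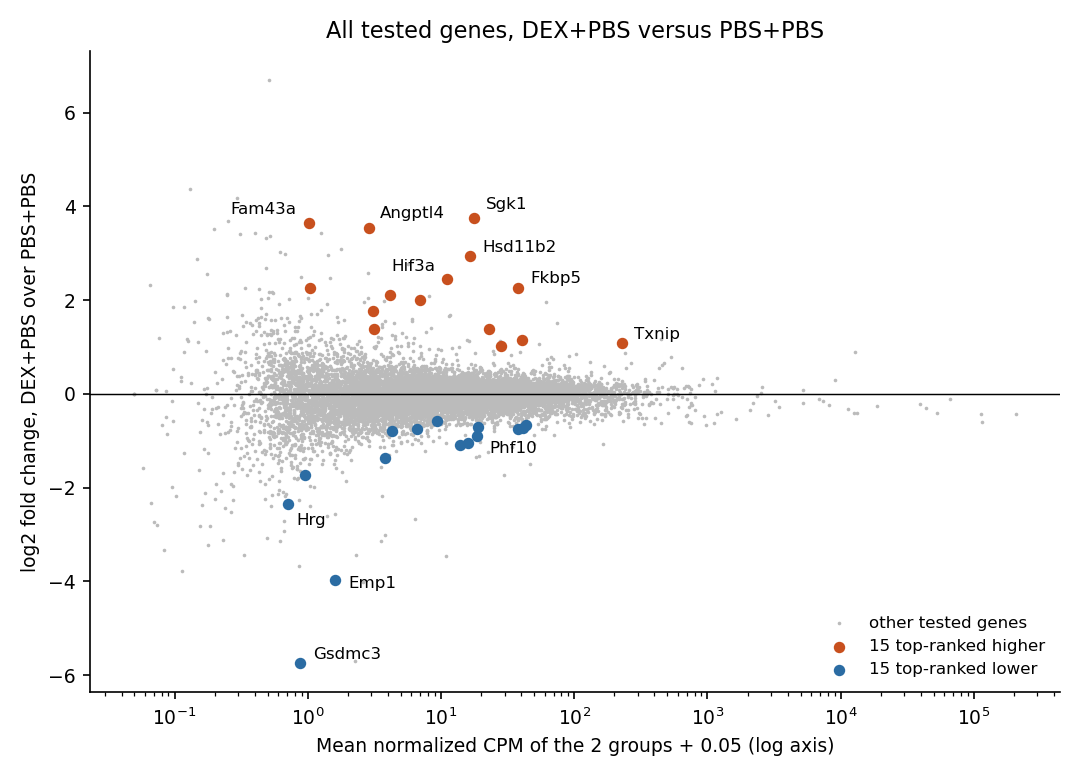
Log2 fold change of each of the 11809 tested genes (DEX+PBS over PBS+PBS, y axis) against its mean level in the 2 groups (normalized CPM plus 0.05, log axis), with the 15 top-ranked higher protein-coding genes in orange and the 15 top-ranked lower in blue. The cloud is centred on 0 and widens toward low levels; Sgk1 (3.76), Hif3a (2.45) and Fkbp5 (2.27) lie above it at levels of more than 10 CPM, where few other genes pass 1.

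Sgk1 encodes serum- and glucocorticoid-regulated kinase 1, which promotes sodium uptake and potassium secretion in epithelia (ENSMUSG00000019970, GRCm39 chr10:21758083-21875802, plus strand). Its level was 17.6, 29.7, 35.0 and 48.5 CPM in DEX+PBS libraries 1 to 4 and 1.11, 3.00, 2.03 and 3.64 CPM in PBS+PBS libraries 1 to 4. The lowest DEX+PBS library stood well above the highest PBS+PBS library. The log2 fold change was 3.76 ± 0.50 (SE, n = 4 per group), which is 13.5-fold, with an adjusted p of 0.00998 by edgeR. The call was lost when PBS+PBS 1, 2 or 3 was left out and was kept without PBS+PBS 4 (adjusted p = 0.0379 by edgeR). Without PBS+PBS 1, 2 or 3 the adjusted p was 0.0796, 0.0663 and 0.0568, and the count of called genes was 0, although the log2 fold change stayed between 3.50 and 3.97 under all alternatives. Without PBS+PBS 4 and DEX+PBS 3 together the adjusted p was 0.115.

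Next in rank came Hif3a, a hypoxia-inducible factor subunit that limits the action of its relatives and responds to glucocorticoids (ENSMUSG00000004328, GRCm39 chr7:16764918-16796352, minus strand). It measured 14.4, 24.1, 10.8 and 26.3 CPM in DEX+PBS 1 to 4 and 2.06, 4.15, 6.25 and 1.00 CPM in PBS+PBS 1 to 4, with a log2 fold change of 2.45 ± 0.43 (adjusted p = 0.161 by edgeR). The groups did not overlap, and DEX+PBS 3 and PBS+PBS 3 came closest to each other. Fkbp5 encodes the co-chaperone FKBP51, which lowers the affinity of the receptor for its hormone and so closes a feedback loop (ENSMUSG00000024222, GRCm39 chr17:28618058-28737521, minus strand). Its values were 63.2, 61.3, 47.3 and 79.5 CPM against 6.51, 16.1, 21.4 and 7.79 CPM, again without overlap, and its log2 fold change was 2.27 ± 0.44 (adjusted p = 0.282 by edgeR and 0.000775 by DESeq2). Leaving out DEX+TNF 4, a library of neither group, which enters the estimate of spread and the filter on low counts (11917 genes were then tested), brought the edgeR value of Fkbp5 to 0.0372, so that 2 genes were called.

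Acy1, the enzyme that releases amino acids from N-acetylated forms (ENSMUSG00000023262, GRCm39 chr9:106310141-106315620, minus strand), showed a smaller shift with little spread. Its level was 38.6, 32.3, 43.4 and 35.7 CPM in DEX+PBS 1 to 4 and 15.2, 20.6, 19.9 and 18.2 CPM in PBS+PBS 1 to 4, a log2 fold change of 1.02 ± 0.20 (adjusted p = 0.300 by edgeR). The libraries within each group lay close together, and the groups were well apart. Mt1, a metallothionein that binds zinc and copper (ENSMUSG00000031765, GRCm39 chr8:94905710-94906955, plus strand), read 19.5, 30.8, 41.0 and 39.6 CPM against 11.5, 14.5, 9.13 and 15.6 CPM, with a log2 fold change of 1.37 ± 0.28. Ddit4, also called REDD1, an inhibitor of the growth kinase complex mTORC1 (ENSMUSG00000020108, GRCm39 chr10:59785491-59788492, minus strand), read 50.4, 45.5, 72.0 and 56.8 CPM against 16.5, 32.9, 26.1 and 26.3 CPM, with a log2 fold change of 1.14 ± 0.25. Neither gene overlapped between the groups. Fam43a, for which no role is given here, was scarce: 13, 11, 16 and 63 counts in DEX+PBS 1 to 4 and 1, 2, 5 and 0 counts in PBS+PBS 1 to 4, with a log2 fold change of 3.65 ± 0.80.

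The DNA before the start of these genes was searched for the palindromic element that the glucocorticoid receptor binds, written GNACANNNTGTNC, which reads the same on both strands. The element was present in the 2000 bases before the annotated start of 361 of 11214 tested protein-coding genes (3.22%). Among the 15 top-ranked higher genes it was present for 4 (26.7%): Sgk1, Mt1, Txnip and Mt2. Among the 15 top-ranked lower genes it was present for 0. Among the 27 listed glucocorticoid-induced genes it was present for 6 (22.2%): Sgk1, Mt1, Mt2, Per1, Bcl6 and Dusp1. Of these, Bcl6 had a log2 fold change of 0.26 ± 0.44 and Dusp1 one of -0.24 ± 0.60, both with p-values over 0.05. The windows of all 7 genes are shown, so that the shared letters can be seen beside the measured changes. Capitals mark the element, and each line reads 5′ to 3′ on the strand of the gene.
Sgk1: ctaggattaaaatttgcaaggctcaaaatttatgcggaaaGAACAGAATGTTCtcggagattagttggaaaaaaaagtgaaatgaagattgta
Mt1: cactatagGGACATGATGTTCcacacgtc
Txnip: cgctaggaGCACACCGTGTCCacgcgccc
Mt2: agctgcgaGGACAGCCTGTCCtgttacaa
Per1: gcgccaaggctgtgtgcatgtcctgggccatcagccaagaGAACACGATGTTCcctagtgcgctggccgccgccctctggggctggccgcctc
Bcl6: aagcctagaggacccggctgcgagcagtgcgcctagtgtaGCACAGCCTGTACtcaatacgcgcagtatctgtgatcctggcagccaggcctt
Dusp1: tgtgatgaGTACAGTTTGTCCcacagagt
These are GRCm39 chr10:21869561-21869653 (plus strand), chr8:94905615-94905643 (plus strand), chr3:96465093-96465121 (plus strand), chr8:94898156-94898184 (plus strand), chr11:68987863-68987955 (plus strand), chr16:23808725-23808817 (minus strand) and chr17:26728453-26728481 (minus strand). The windows of Mt1, Txnip, Mt2 and Dusp1 are shorter because longer ones would run into an annotated exon. The first base of the element lies at -964 from the canonical start for Sgk1, -87 for Mt1, -166 for Txnip, -968 for Mt2, -1365 for Per1, -1175 for Bcl6 and -980 for Dusp1. Sgk1, Mt2, Per1 and Dusp1 also have annotated starts upstream of the canonical one, and the windows of Sgk1, Per1 and Dusp1 lie inside the annotated gene. Within the nearest 250 bases the element was present for 0.187% of all promoters and for 2 of the 15 higher genes, Mt1 and Txnip. A single arm of it, AGAACA on either strand, which a full element may contain, was present within 250 bases for 11.2% of all promoters, for 1 of the 15 higher and for 2 of the 15 lower genes. A match is a description of letters and not a measured binding site.

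**Figure D2:**
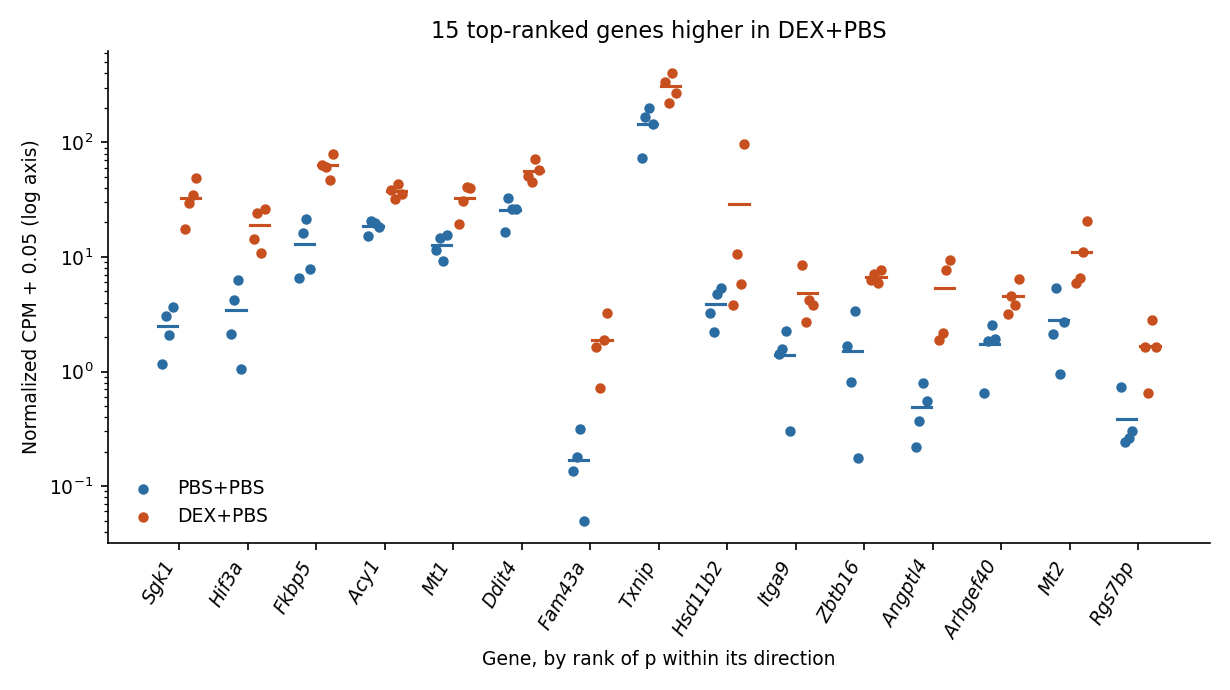
Normalized CPM plus 0.05 (log axis) of the 15 top-ranked protein-coding genes higher in DEX+PBS, a point per library (blue PBS+PBS, orange DEX+PBS) and a bar at the mean of 4. For 13 of the 15 genes all orange points lie above all blue points, as for 0.999% of all tested genes. The 15 were chosen by p in these same libraries, which favours separate groups. Hsd11b2 and Rgs7bp overlap, and the mean of Hsd11b2 is set by a single library at 96.5 CPM.

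Txnip was next among the higher protein-coding genes at 1 CPM or more. It encodes an arrestin-like protein that binds thioredoxin and limits glucose uptake. It measured 339.8, 219, 403 and 272 CPM in DEX+PBS 1 to 4 and 73.6, 168, 198 and 145 CPM in PBS+PBS 1 to 4, a log2 fold change of 1.08 ± 0.29. The groups did not overlap, with DEX+PBS 2 and PBS+PBS 3 closest. Mt2, a metallothionein gene next to Mt1 on chromosome 8, read 5.83, 6.51, 11.0 and 20.6 CPM against 2.06, 5.36, 0.908 and 2.64 CPM and had a log2 fold change of 2.01 ± 0.60. Here DEX+PBS 4 was the highest library, and the lowest DEX+PBS library exceeded PBS+PBS 2 only slightly. Angptl4, a secreted inhibitor of lipoprotein lipase, read 1.82, 2.11, 7.67 and 9.43 CPM against 0.171, 0.319, 0.747 and 0.502 CPM, with a log2 fold change of 3.54 ± 1.01. Libraries DEX+PBS 3 and 4 were far above DEX+PBS 1 and 2, yet all 4 lay above the controls.

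Zbtb16, also called PLZF, a transcriptional repressor, was nearly uniform after DEX at 6.19, 6.99, 5.84 and 7.65 CPM and ranged widely in the controls at 1.63, 0.766, 3.31 and 0.126 CPM. Its log2 fold change was 2.12 ± 0.60, without overlap. Itga9, the alpha-9 chain of an integrin that binds the extracellular matrix, read 8.50, 2.65, 4.12 and 3.77 CPM against 1.37, 1.53, 2.19 and 0.251 CPM. Arhgef40, an exchange factor for small GTPases, read 3.16, 4.52, 3.78 and 6.42 CPM against 0.600, 1.79, 2.51 and 1.88 CPM. Their log2 fold changes were 1.76 ± 0.49 and 1.39 ± 0.40, and neither gene overlapped. Rgs7bp, which anchors regulators of G-protein signalling at the membrane, was near the limit of detection with 13, 10, 24 and 31 counts in DEX+PBS 1 to 4 and 8, 3, 4 and 2 counts in PBS+PBS 1 to 4.

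Hsd11b2 encodes the enzyme that converts active corticosterone to its inactive form and guards the mineralocorticoid receptor in sodium-absorbing epithelia. Its values were 3.76, 10.5, 5.73 and 96.5 CPM in DEX+PBS 1 to 4 and 3.17, 2.17, 4.70 and 5.28 CPM in PBS+PBS 1 to 4. DEX+PBS 4 alone stood high, and DEX+PBS 1 lay inside the control range. The fitted log2 fold change of 2.95 ± 0.80 was 0.82 without DEX+PBS 4, so this rank rests on that library.

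Of the genes lower after DEX, 0 were called by edgeR or DESeq2. Those of the 15 top-ranked with at least 10 CPM in PBS+PBS had log2 fold changes between -0.58 and -1.09. Phf10, a subunit of a SWI/SNF chromatin remodelling complex (ENSMUSG00000023883, GRCm39 chr17:15164719-15182008, minus strand), ranked highest among them. It measured 16.0, 11.8, 12.7 and 11.3 CPM in DEX+PBS 1 to 4 and 25.6, 20.2, 26.3 and 24.4 CPM in PBS+PBS 1 to 4, a log2 fold change of -0.90 ± 0.22 (adjusted p = 1 by edgeR). The groups were apart, and no library stood out in either. Fut1, a fucosyltransferase that builds the H antigen on glycans, read 8.86, 6.69, 12.6 and 7.39 CPM against 18.6, 19.0, 24.7 and 12.9 CPM, with a log2 fold change of -1.09 ± 0.30. PBS+PBS 4 and DEX+PBS 3 nearly met. Marchf5, a ubiquitin ligase of the mitochondrial outer membrane, read 26.9, 25.3, 32.9 and 27.8 CPM against 52.2, 40.5, 49.1 and 48.5 CPM, with a log2 fold change of -0.75 ± 0.24 and a clear gap between the groups.

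Pck2, the mitochondrial form of phosphoenolpyruvate carboxykinase, read 24.5, 37.3, 38.9 and 33.7 CPM in DEX+PBS 1 to 4 and 44.6, 50.2, 68.9 and 49.7 CPM in PBS+PBS 1 to 4. Eif4ebp1, the translation repressor that mTORC1 switches off, read 30.8, 29.2, 37.6 and 26.7 CPM against 48.1, 42.1, 54.2 and 60.5 CPM. Both had groups that did not overlap, and their log2 fold changes were -0.67 ± 0.22 and -0.72 ± 0.25. Crebrf, a regulator of the factor CREB3 and of energy storage, read 15.9, 15.3, 15.1 and 11.3 CPM against 31.5, 16.3, 27.7 and 18.3 CPM, a log2 fold change of -0.71 ± 0.21. In the controls PBS+PBS 1 and 3 were high, and PBS+PBS 2 was close to the treated libraries. Clk2, a kinase of splicing factors, read 4.37, 4.40, 4.47 and 6.22 CPM against 8.91, 8.11, 10.5 and 5.40 CPM, and DEX+PBS 4 lay above PBS+PBS 4.

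Oasl1, an interferon-induced protein that restrains the translation of Irf7, read 3.28, 3.38, 1.95 and 3.82 CPM in DEX+PBS 1 to 4 and 5.14, 6.001, 5.39 and 5.02 CPM in PBS+PBS 1 to 4 (log2 fold change -0.78 ± 0.26). Gper1, a membrane receptor for oestrogen, read 15.7, 13.0, 6.19 and 6.88 CPM against 27.3, 22.5, 21.4 and 14.9 CPM (-1.05 ± 0.35 on the log2 scale). Stau2, a double-stranded RNA-binding protein of RNA transport, read 7.40, 8.92, 6.99 and 6.58 CPM against 13.2, 10.2, 10.9 and 10.4 CPM (-0.58 ± 0.20). Oasl1 and Stau2 did not overlap between the groups, whereas Gper1 did through DEX+PBS 1 and PBS+PBS 4. Tex15, known for its role in male germ cells, had a log2 fold change of -1.36 ± 0.47 from 3.26 to 8.17 CPM in PBS+PBS to 1.49 to 2.45 CPM in DEX+PBS. Aspa, which splits N-acetylaspartate, ranged over 0.694 to 3.14 CPM in PBS+PBS and 0.115 to 0.612 CPM in DEX+PBS. Both were without overlap, at levels of a few CPM or less.

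The largest fitted decreases came from genes close to 0, for which raw counts are more telling than a fold. Gsdmc3, a gasdermin of a family of close paralogs, had 1, 0, 0 and 0 counts in DEX+PBS 1 to 4 and 0, 17, 12 and 38 counts in PBS+PBS 1 to 4. Emp1, an epithelial membrane protein, had 0, 4, 0 and 7 counts and 0, 10, 152 and 25 counts. In both genes 1 control library was itself at 0, so the groups overlapped. Hrg, histidine-rich glycoprotein, had 0, 5, 2 and 5 counts and 25, 13, 14 and 6 counts, and here PBS+PBS 1 stood above the other controls.

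**Figure D3:**
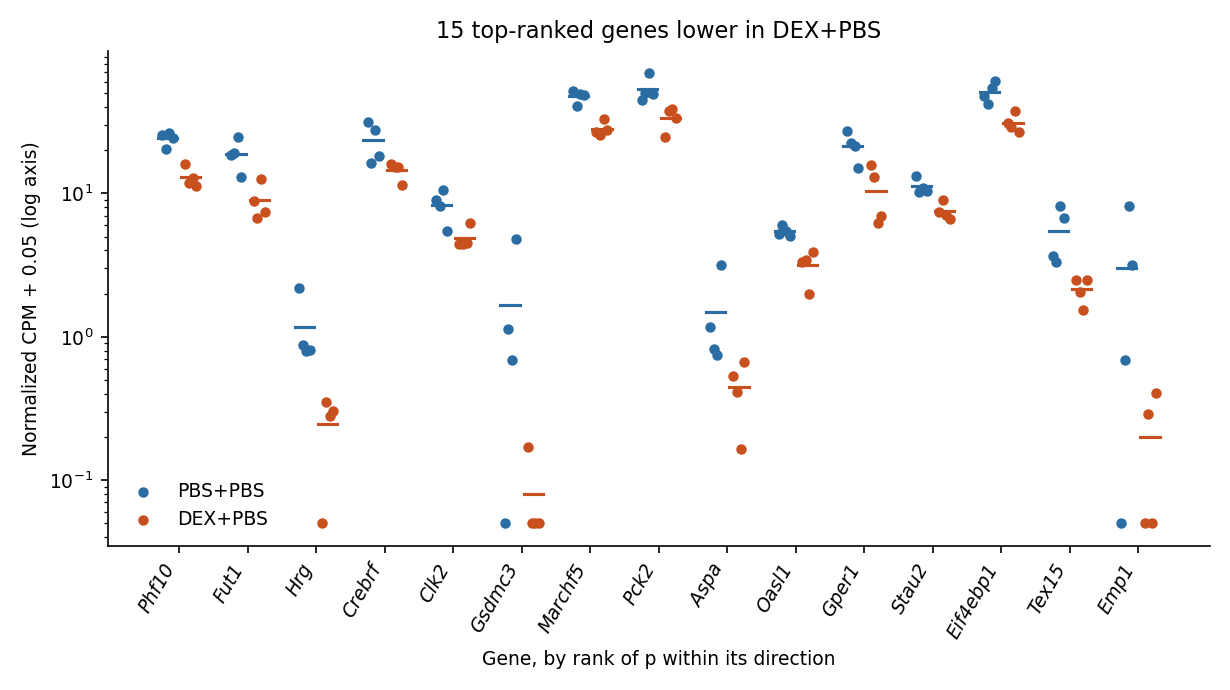
Normalized CPM plus 0.05 (log axis) of the 15 top-ranked protein-coding genes lower in DEX+PBS, a point per library (blue PBS+PBS, orange DEX+PBS) and a bar at the mean of 4. Phf10, Marchf5, Pck2, Eif4ebp1 and Stau2 have tight, separate groups; Gsdmc3, Emp1 and Hrg have libraries at 0 counts, drawn at 0.05.

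DEX+TNF versus PBS+TNF measured the same first injection in other libraries, in mice that also received TNF. Sign there was not used by the ranking. Of all tested genes, 57.9% had the same sign in both comparisons (61.7% of the genes higher and 54.6% of the genes lower in DEX+PBS). Among the first 25 genes of the ranking the sign was the same for 17 of 19 higher genes and for 4 of 6 lower genes. Among the first 100 it was the same for 37 of 47 higher and 32 of 53 lower genes. Of the 108 higher genes at p under 0.05, 82 had the same sign (75.9%), and 41 (38.0%) also had a p under 0.05 in the same direction there, where 7.55% of all genes were higher at that threshold. Of the 116 lower genes, 76 had the same sign (65.5%), and 13 (11.2%) had a p under 0.05 in the same direction, against 4.38% of all genes. Both comparisons use the same estimate of spread for each gene, so their p-values are not independent.

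Several of the top-ranked genes were higher after DEX in both settings. Of the 11809 tested genes, 40 were called by edgeR in DEX+TNF versus PBS+TNF. The log2 fold change in TNF-treated mice was 3.06 for Sgk1, 2.64 for Hif3a and 1.11 for Acy1. These 3 genes were among those called there by edgeR (adjusted p = 0.0236, 0.0276 and 0.0295). It was 1.65 for Fkbp5, 1.02 for Mt1, 0.79 for Ddit4, 0.85 for Txnip and 2.45 for Zbtb16. DEX+TNF 4 stood above the other DEX+TNF libraries for Sgk1 (115 CPM against 24.8 to 33.6) and Fkbp5 (135 against 43.2 to 44.6). The same held for Zbtb16 (17.8 against 3.48 to 8.98) and Ddit4 (119 against 60.7 to 74.0), but not for Txnip. The part of that library in these fold changes was not tested. Angptl4 was called as well (log2 fold change 5.82, adjusted p = 0.0351 by edgeR), with 1.77, 0.566, 10.003 and 38.1 CPM in DEX+TNF 1 to 4 and 0.0603 to 0.385 CPM in PBS+TNF, so that DEX+TNF 3 and 4 stood far above the rest. Rgs7bp was called there too (adjusted p = 0.0236 by edgeR), but it had 0, 0, 0 and 1 counts in PBS+TNF 1 to 4 and 9, 17, 12 and 70 counts in DEX+TNF 1 to 4. Its fitted fold change in TNF-treated mice therefore depends on the prior count, and its DEX+TNF level of 0.726 to 3.49 CPM overlapped the 0.603 to 2.75 CPM of DEX+PBS. Fam43a and Itga9, by contrast, were near 0 with TNF at 0.36 and 0.15.

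The difference between the DEX comparisons was tested as an interaction, in which 0 genes were called by edgeR and 642 had an unadjusted p under 0.05. Its smallest adjusted p belonged to Crebrf, lower after DEX alone (-0.71) and called higher after DEX in TNF-treated mice (1.14, adjusted p = 0.0295 by edgeR). The difference was 1.85 ± 0.30 (SE) on the log2 scale, with an unadjusted p of 9.71e-06 and an adjusted p of 0.102. Gper1 likewise had values of opposite sign, -1.05 and 0.82, a difference of 1.88 (adjusted p = 0.727 by edgeR). For Fam43a the difference was -3.29 (adjusted p = 0.735 by edgeR). The groups without DEX also differed in level. Crebrf read 8.47 to 9.84 CPM in PBS+TNF against 16.3 to 31.5 CPM in PBS+PBS, and Gper1 2.89 to 5.43 against 14.9 to 27.3 CPM. In DEX+TNF, Crebrf read 18.4 to 22.8 CPM and Gper1 3.80 to 11.2 CPM.

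**Figure D4:**
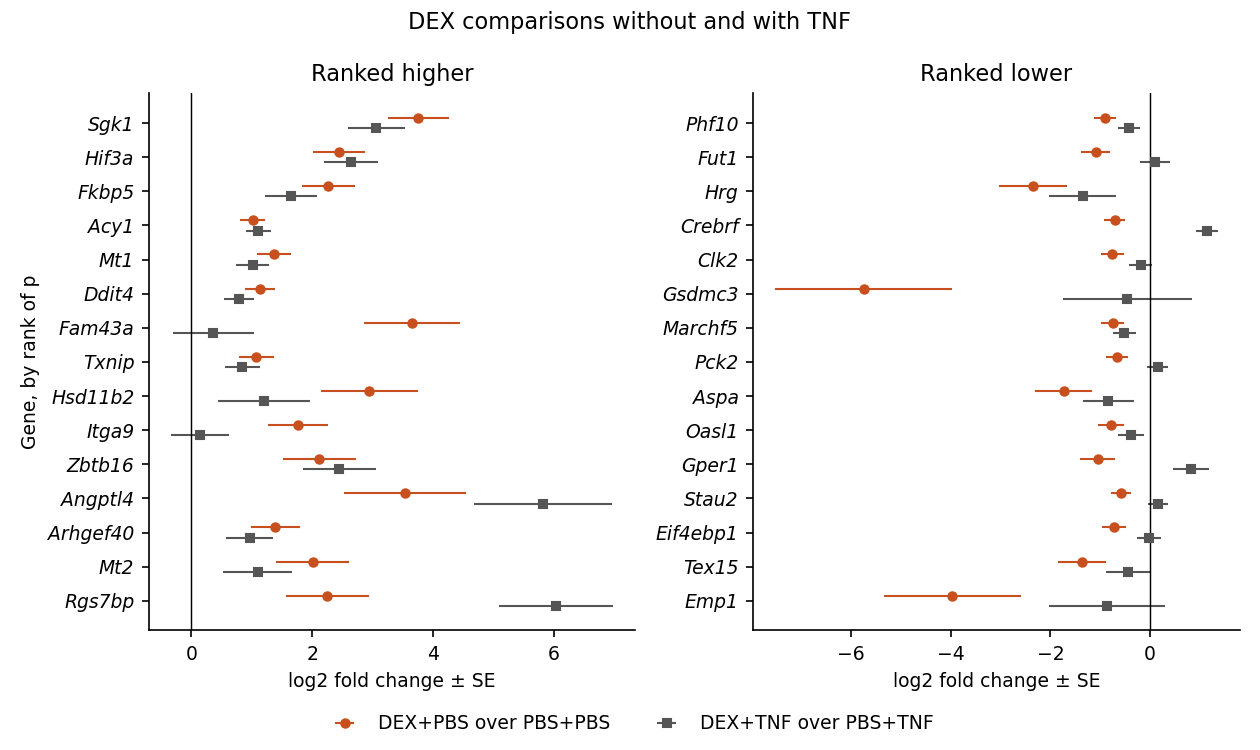
Log2 fold change ± SE of the 15 top-ranked higher (left) and 15 top-ranked lower (right) genes in DEX+PBS over PBS+PBS (orange circles) and DEX+TNF over PBS+TNF (grey squares). All 15 higher genes are also above 0 with TNF, with Fam43a (0.36) and Itga9 (0.15) close to 0; of the lower genes, Fut1, Crebrf, Pck2, Gper1 and Stau2 are above 0 with TNF.

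Lists of genes placed the ranking in pathways. They are described by counts and medians beside all tested genes, whose median was -0.02. Of the glucocorticoid-induced genes, 22 of 27 tested members had a positive log2 fold change, with a median of 0.49. The p was under 0.05 for 11 of 27 upward and for 0 downward, where 0.915% and 0.982% of all genes were, and 10 of 27 had all DEX+PBS libraries above all controls, where 0.999% of all genes did. By edgeR 1 member, Sgk1, was called. When a compared library was left out the median ranged from 0.39 to 0.75. The mean log2 CPM of the list was 3.11 to 3.83 in DEX+PBS and 2.20 to 2.77 in PBS+PBS, without overlap. That measure was also without overlap for the ion transport list (5.08 to 5.52 against 4.47 to 5.01), which shares Sgk1 with it. The same held for the fatty acid and fuel list (3.43 to 3.79 against 2.83 to 3.36), which shares Angptl4, Pdk4, Lpin1, Irs2 and Pck1. Summed CPM stayed apart for the glucocorticoid list (469 to 617 against 269 to 332). It overlapped for the ion transport list (1434 to 1917 against 954 to 1458) and the fuel list (373 to 556 against 330 to 477). The part of the shared genes in these separations was not tested. The glucocorticoid list holds genes already known to respond in these libraries and is not independent evidence of the direction.

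Other classic targets ranked lower or had negative values. Tsc22d3, which encodes the anti-inflammatory protein GILZ, measured 21.0, 20.3, 27.0 and 24.5 CPM in DEX+PBS 1 to 4 and 10.1, 12.3, 16.8 and 11.2 CPM in PBS+PBS 1 to 4, with groups apart, a log2 fold change of 0.88 ± 0.37 and rank 128. Per1, a negative limb gene of the circadian clock, read 21.1, 24.1, 12.03 and 24.7 CPM against 10.6, 15.002, 17.99 and 8.92 CPM, with a log2 fold change of 0.64 ± 0.30 and rank 223. In all, 3 of its treated libraries were above all controls, and DEX+PBS 3 was not. Pdk4, the kinase that shuts pyruvate out of the mitochondrial oxidation, read 7.40, 7.11, 14.3 and 23.3 CPM against 1.88, 1.79, 6.57 and 1.76 CPM, a log2 fold change of 2.09 ± 0.71. PBS+PBS 3 came close to the treated range. Klf9, a Krüppel-like repressor, read 48.9, 48.6, 31.6 and 42.4 CPM against 41.6, 37.7, 41.2 and 24.996 CPM with overlap (log2 fold change 0.24 ± 0.25). Members with negative values included Tat, tyrosine aminotransferase of the liver (-1.03, at most 9 counts in any of the 8 libraries), Zfp36, an mRNA decay factor (-0.26), and the phosphatase Dusp1 (-0.24).

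The levels of the receptors themselves overlapped between the groups. Nr3c1, the glucocorticoid receptor, read 8.86, 13.2, 12.5 and 11.5 CPM in DEX+PBS 1 to 4 and 19.6, 14.4, 19.2 and 9.29 CPM in PBS+PBS 1 to 4, a log2 fold change of -0.44 ± 0.24 (rank 420). Nr3c2, the mineralocorticoid receptor, read 16.4, 15.6, 14.3 and 23.0 CPM against 19.8, 16.4, 19.6 and 13.7 CPM, a log2 fold change of -0.00 ± 0.39, which changed sign among the alternatives. Among 9 tested genes of corticosteroid receptors and local steroid handling, 4 were positive, the median was -0.00, and Hsd11b2 alone had a p under 0.05. The HSP90 genes Hsp90aa1 (-0.11) and Hsp90ab1 (0.00) and the co-chaperones Fkbp4 (0.06) and Ptges3 (-0.11) lay near 0.

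Of 13 tested genes of epithelial ion transport around SGK1, 10 were positive, against 47% of all tested genes, with a median of 0.21. Atp1b1, a subunit of the sodium pump, had a log2 fold change of 0.55 ± 0.26, with an unadjusted p under 0.05. The sodium channel subunit Scnn1a (0.20), the ligase Nedd4l that SGK1 restrains (0.20), the chloride channel Cftr (-0.01) and the related kinase Sgk3 (-0.32) had p-values over 0.05. Kcne3, a potassium channel subunit, had the lowest value of the list (-0.33).

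Of 15 clock genes, 9 were positive with a median of 0.26. At p under 0.05 there was 1 upward, Per1, and 1 downward, where 0.915% and 0.982% of all genes were. Tef, a clock output factor, was at 0.54 and the repressor Nr1d2 at -0.51, both with wide spread. Among 19 genes of fatty acid and fasting-type fuel use, 12 were positive with a median of 0.08. In this list 3 had a p under 0.05 upward, where 0.915% of all genes did. These were Angptl4 and Pdk4, both also in the glucocorticoid list, and Ppargc1a, the co-activator of mitochondrial biogenesis (log2 fold change 0.99 ± 0.42). Without PBS+PBS 1 the median of the fuel list was 0.33. The oxidation enzymes Cpt1a (0.06), Acadm (-0.18) and Acadl (-0.33) and the factor Creb3l3 (-0.48) did not pass that threshold.

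Inflammatory and immediate early lists held more negative than positive values, and no member was called. Of 35 tested interferon-induced genes 6 were positive, the median was -0.19, and Oasl1 alone had a p under 0.05. The members with the largest negative values, Cxcl9 and Ifit1, had at most 7 counts in any of the 8 libraries, and the largest positive value was that of Cxcl10 with at most 4. Of 21 NF-kB target genes 7 were positive with a median of -0.16 (0 without PBS+PBS 2), and the only p under 0.05 was upward, for the iron-sequestering protein Lcn2, at 7, 27, 18 and 154 counts in DEX+PBS 1 to 4 and 0, 20, 1 and 0 counts in PBS+PBS 1 to 4. PBS+PBS 2 held nearly all control counts of Lcn2 and exceeded DEX+PBS 1 in CPM. Nfkbia, the NF-kB inhibitor and a glucocorticoid target in many cells, was at 0.24, Tnfaip3 at -0.80 and Nos2 at 1.11. Of 22 AP-1 and immediate early genes 7 were positive with a median of -0.23 (-0.07 without PBS+PBS 1), and 0 had a p under 0.05. Fos read 2.91, 19.0, 10.4 and 10.8 CPM in DEX+PBS 1 to 4 and 70.3, 9.32, 7.64 and 22.5 CPM in PBS+PBS 1 to 4 (log2 fold change -1.33 ± 0.64), and Egr1 read 2.91, 11.8, 13.1 and 23.5 CPM against 66.5, 11.3, 9.72 and 17.6 CPM (-1.02 ± 0.60). In both, PBS+PBS 1 alone was far above the rest and DEX+PBS 1 was lowest.

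The levels of Paneth cell products overlapped between the groups for all listed genes but Nupr1. Of 20 tested alpha-defensin genes 2 were positive, and the median was -0.40, with values from -0.66 (Defa5) to 0.19 (Defa43) and 0 members under a p of 0.05. Without PBS+PBS 4 that median was 0.13, and without DEX+PBS 3 it was -0.77, so the direction of the list rests on single libraries. In shares of all counts, the alpha-defensin genes took 32.3% to 49.3% in DEX+PBS and 37.3% to 54.5% in PBS+PBS, with PBS+PBS 4 the highest. Reads of near-identical defensin genes may have been divided among them, so single members are uncertain. Lyz1, lysozyme, read 44032, 59218, 153651 and 112424 CPM in DEX+PBS 1 to 4 and 188788, 80888, 63572 and 222948 CPM in PBS+PBS 1 to 4 (log2 fold change -0.59 ± 0.66). Mmp7, the protease that activates pro-defensins in mice, read 5470.2, 5637, 11617 and 3675 CPM against 3980.5, 5287, 4325 and 14912 CPM (-0.11 ± 0.60, or 0.53 without PBS+PBS 4). Of 30 other Paneth cell genes 17 were positive, the median was 0.07, and 0 had a p under 0.05. Nupr1, a stress-induced chromatin protein, came nearest with 194, 284, 286 and 279 CPM against 315, 344, 554 and 416 CPM, groups apart and a log2 fold change of -0.64 ± 0.32 (rank 264).

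Of 29 genes of the unfolded protein response 15 were positive with a median of 0.00, and 0 had a p under 0.05. The chaperone Hspa5 was at -0.11, the factor Xbp1 at -0.24, the sensor Ern2 at 0.27 and the ligase Syvn1 at 0.23. The lowest values of the list were Trib3 at -0.82 and Chac1 at -0.78, with spreads between libraries larger than the difference. Of 20 antioxidant and glutathione genes 7 were positive with a median of -0.07 (0.13 without PBS+PBS 4), from the cystine transporter Slc7a11 at -1.21 and Gpx4 at -0.48 to Keap1 at 0.28 and Gsta4 at 1.28, and 0 had a p under 0.05. Mitochondrial transcripts had a median of -0.29 over 7 tested genes, 1 of them positive, again with 0 under a p of 0.05.

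**Figure D5:**
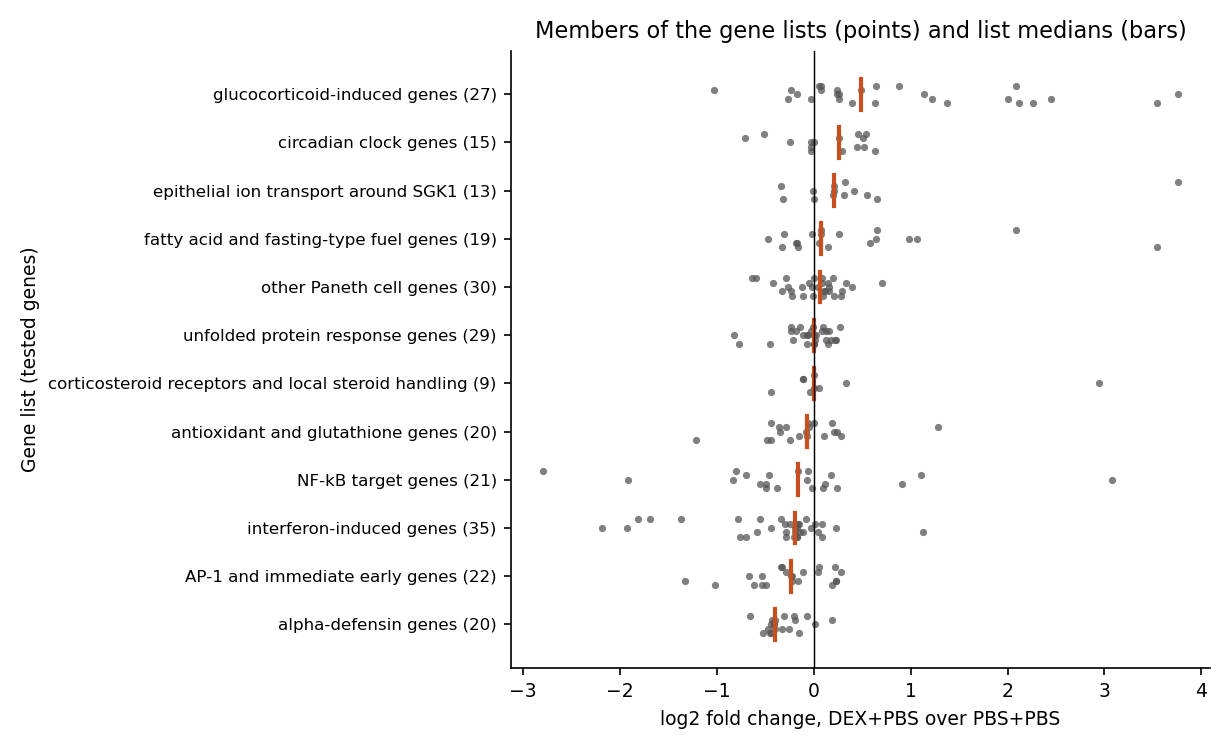
Log2 fold change (DEX+PBS over PBS+PBS, x axis) of each tested member of 12 gene lists (points; the vertical offset is for legibility) with the list median as a bar and the number of tested genes in brackets. The glucocorticoid-induced genes have the highest median (0.49) and the alpha-defensin genes the lowest (-0.40), and few members of the lists lie beyond 1 on either side.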

How the data were processed

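RNA was measured in FACS-sorted Paneth cells, and the authors deposited raw counts of reads for 55414 Ensembl genes. Per the labels, libraries were stranded mRNA libraries, the build was mm39 (GRCm39), and STAR 2.7.10a and DESeq2 were used. The program that made the counts, its use of strand and its treatment of reads that match several genes are not given in the sources used here. Groups and replicate numbers came from the labels, and the series text calls the replicates biological. Names and coordinates came from GENCODE M39 on GRCm39 (54749 identifiers matched).

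From the counts, filterByExpr of edgeR 4.0.16 (R 4.3.3) kept 11809 genes. Library sizes were scaled by TMM, and a quasi-likelihood model of the 4 group means was fitted robustly over all 16 libraries, leaving 12 residual degrees of freedom. Contrasts were tested two-sided, p-values were adjusted by Benjamini-Hochberg over all tested genes, and genes under 0.05 were called. SE is the size of the log2 fold change over the square root of F. No replicates agreed within sampling noise.

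Named genes were the called gene, the 15 protein-coding genes with the smallest p in each direction among those with a mean of at least 1 CPM in the higher group, Sgk1, Fkbp5, Tsc22d3, Per1, Klf9, Nr3c1, Nr3c2, Pdk4, Angptl4, Lyz1 and Mmp7, and the 2 largest changes each way in each pathway list. Atp1b1, Ppargc1a and other list members beyond this were named after their values were seen. Some genes that the rule names are not reported here. The comparison, the genes and the lists were chosen with earlier results of these data known. Promoters were the 2000 bases before the canonical start of each gene, read from GRCm39. Totals were 7286307 to 15832111 counts per library. The median SE was 0.81 for genes under 1 CPM, 0.39 at 1 to 10, 0.26 at 10 to 100 and 0.29 over 100 CPM. Alternatives were other scalings (median-of-ratios, upper-quartile, TMM without alpha-defensin genes), fitting without a filter or only genes with 5 CPM or more on average, DESeq2 1.42.0, fewer libraries, the replicate number as a block, an adjusted p under 0.1, and leaving out each library.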

Additional observations from a re-analysis of the deposited data

Results flagged for a closer look

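In groups of 4 libraries, a value was set aside for a closer look where its gap to the nearest other library took up nearly the whole range of the group. By this measure chance picks about 1 in 20 groups, and here 11 of 120 were picked (9.17%).

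In DEX+PBS, a single library was far from the other 3 for Hsd11b2 (highest at 96.5 CPM, others 3.76 to 10.5), Clk2 (highest at 6.22 CPM, others 4.37 to 4.47), Crebrf (lowest at 11.3 CPM, others 15.1 to 15.9) and Gsdmc3 (highest at 0.121 CPM, others at 0). The summed markers of cycling cells were highest at 183 CPM in a single DEX+PBS library, the others being at 65.1 to 84.0 CPM.

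In PBS+PBS, the same held for Pdk4 (highest at 6.57 CPM, others 1.76 to 1.88), Hrg (highest at 2.14 CPM, others 0.747 to 0.830), Rgs7bp (highest at 0.685 CPM, others 0.192 to 0.251) and Mmp7 (highest at 14912 CPM, others 3980.5 to 5287). The summed stem cell markers were lowest at 554 CPM, the others being at 769 to 811 CPM, and red blood cell markers were at 0.107 CPM in 1 library and at 0 in the others. Each of these 8 genes was also fitted with each library left out, and 7 kept the sign of the log2 fold change wherever a value was obtained. Hsd11b2 went from 2.95 to 0.82 without DEX+PBS 4, and Mmp7 from -0.11 to 0.53 without PBS+PBS 4. The part of single libraries in the marker sums was not tested.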

How the results depend on the processing

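The count of called genes (1) was 7 with DESeq2, 0 to 2 when a library was left out, and 0 without PBS+PBS 4 and DEX+PBS 3, a setting chosen after seeing the data. It was 1 under the other alternatives, including an adjusted p under 0.1. The 0 calls came without PBS+PBS 1, 2 or 3, and the 2 calls, Sgk1 and Fkbp5, without DEX+TNF 4. The cause was not tested. At an unadjusted p under 0.05 the count (224) was 525 with no low-count filter, where 21543 genes were tested, 130 with a mean of at least 5 CPM, where 7939 were tested, and 174 to 283 when a library was left out. Over all genes the median log2 fold change stayed between -0.04 and 0.02. Of 38 named genes, 36 had the same sign under all alternatives that gave a value. The log2 fold change of Nr3c2 was 0.0091 with no filter, 0.0028 with the replicate block and -0.18 to 0.080 when a library was left out, above 0 without DEX+PBS 1, 2 or 3 or PBS+PBS 1 or 3. That of Mmp7 was 0.030 with the replicate block in the 8 libraries, -0.53 to 0.53 when a library was left out (0.08 without DEX+PBS 4, 0.53 without PBS+PBS 4) and 0.13 without PBS+PBS 4 and DEX+PBS 3.

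Of 12 gene list medians, 5 changed sign when a compared library was left out: the alpha-defensin genes (-0.77 to 0.13), antioxidant genes (-0.17 to 0.13), corticosteroid receptors and steroid handling (-0.11 to 0.06), other Paneth cell genes (-0.03 to 0.13) and unfolded protein response genes (-0.14 to 0.11).

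Of the first 25 genes by p, 22 were shared with DESeq2, 18 with the replicate block, 12 with the fit of only the 8 libraries and 15 without the DEX+TNF group. Replicate numbers are shared by the groups, but the labels used here do not say whether they mark pairs, and the main fit did not use them. For libraries of the same number, correlations of the deviations from the group means were 0.01, 0.15, -0.37 and -0.09. Libraries of different numbers were not compared in this way, so these values do not settle whether the libraries were paired. With the number as a block, 1 gene was called (Sgk1, adjusted p = 0.00227 by edgeR) and 254 had a p under 0.05 (185 in the fit of 8 libraries). Counts limit the scarce genes most: 21.7% of genes under 1 CPM had a log2 fold change past 1, against 0.545% at 10 to 100 CPM.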
